A study of Homo sapiens with 6 samples.

Results

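The 10 genes of the parvin-ILK-PINCH complex and of the proteins that switch integrins on were followed in the RNA-Seq counts of H1155 cells: PARVA, PARVB, PARVG, ILK, LIMS1, LIMS2, FERMT1, FERMT2, TLN1 and VCL. They are 10 of the 58735 genes in the count table and were taken by gene name. They were selected on the comparison of the WT libraries with the GFI1-KO libraries, whose results for PARVA and other adhesion genes were already known, so their differences between the groups are given as a description and without a p-value. H1155 is a line of neuroendocrine large cell lung cancer, and untreated cells grown in DMEM with fetal bovine serum gave 3 libraries labelled WT (the unedited line) and 3 labelled GFI1-KO. The GFI1-KO cells carry CRISPR/Cas9 edits made with guides to the GFI1 promoter region, and clones that each grew from a single GFP-positive cell were sorted from them. How many clones stand behind the 3 libraries is not given in the sources used here, so that an effect of the edit and a trait of a clone cannot be told apart.

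Library totals lay between 14882914 and 17692882 counts, so that a count of 3, taken as the smallest a library can show, equals 0.170 to 0.202 CPM (counts scaled to the library size). Such floors and the counting intervals below cover counting error only. In the libraries labelled WT, the edited gene GFI1 had 153, 106 and 125 counts, and in those labelled GFI1-KO it had 174, 188 and 170. Its counts were not lower in the edited cells, and every direction given here rests on the labels. The neuroendocrine markers CHGA, CHGB, SYP, INSM1, NEUROD1, NCAM1 and SCG2 were well above the floor in all 6 libraries. Of 8 blood cell markers, 5 never passed 3 counts in a library, and the summed level of the list was 0.127 to 0.231 FPKM (counts per kilobase of gene length, scaled to the library total) in the libraries labelled WT and 0.350 to 0.483 in those labelled GFI1-KO. Of 8 fibroblast markers, 4 passed the filter on low counts, DCN had no count in any library, and the summed level was 17.6 to 18.1 FPKM in WT and 12.5 to 13.0 FPKM in GFI1-KO, most of it COL1A2. The list did not move as a whole: COL3A1 went from 2, 3 and 2 counts to 129, 143 and 170, and PDGFRB from 136, 128 and 135 to 17, 15 and 15. The part of these lists in the values below was not tested. In bulk RNA, fewer cells of a kind and less RNA per cell cannot be told apart.

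Integrins are the receptors that hold cells to the extracellular matrix, and their short cytoplasmic tails need partners to bind ligand firmly and to reach the actin cytoskeleton. Talin and the kindlins bind the tail of the beta chain and switch the receptor to its active form, and vinculin reinforces the link from talin to actin. Integrin-linked kinase (ILK), a pseudokinase, joins a PINCH adaptor and a parvin into a stable ternary complex, the IPP complex, which kindlin brings to the adhesion and whose parvin binds actin. Each slot of the complex can be filled by paralogs, PARVA, PARVB or PARVG for the parvin and LIMS1 or LIMS2 for PINCH, so cells can build several versions of the complex.

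In the libraries labelled GFI1-KO, PARVA was all but absent and PARVB was higher, so that the parvin transcripts of these cells were almost all PARVB. LIMS2, the less abundant PINCH gene, fell from 128 to 46.4 normalized counts. VCL, ILK and, by a small step, TLN1 were higher, and LIMS1, FERMT2 and FERMT1 were lower by small steps. With a GC and length correction the steps of FERMT2 and TLN1 turned over, and those of LIMS1 and FERMT1 vanished. That correction takes out the trend of each library's counts with the GC content and length of genes. Of the 10 members, 9 passed edgeR's filter on low counts, 4 of them on the higher and 5 on the lower side of edgeR's threshold, an adjusted p of 0.05. Of all 17514 genes tested, 72.4% were called in this comparison, 36.5% higher and 35.9% lower. The 9 members also had no overlap between the groups in normalized count (counts divided by the TMM-adjusted library size, at the mean size of the 6 libraries), as had 74.4% of all genes tested. The members were chosen with this comparison known, so nothing is read from these counts. The median log2 fold change of the 9 was -0.29, beside 0.0005 over all genes tested.

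**Figure D1:**
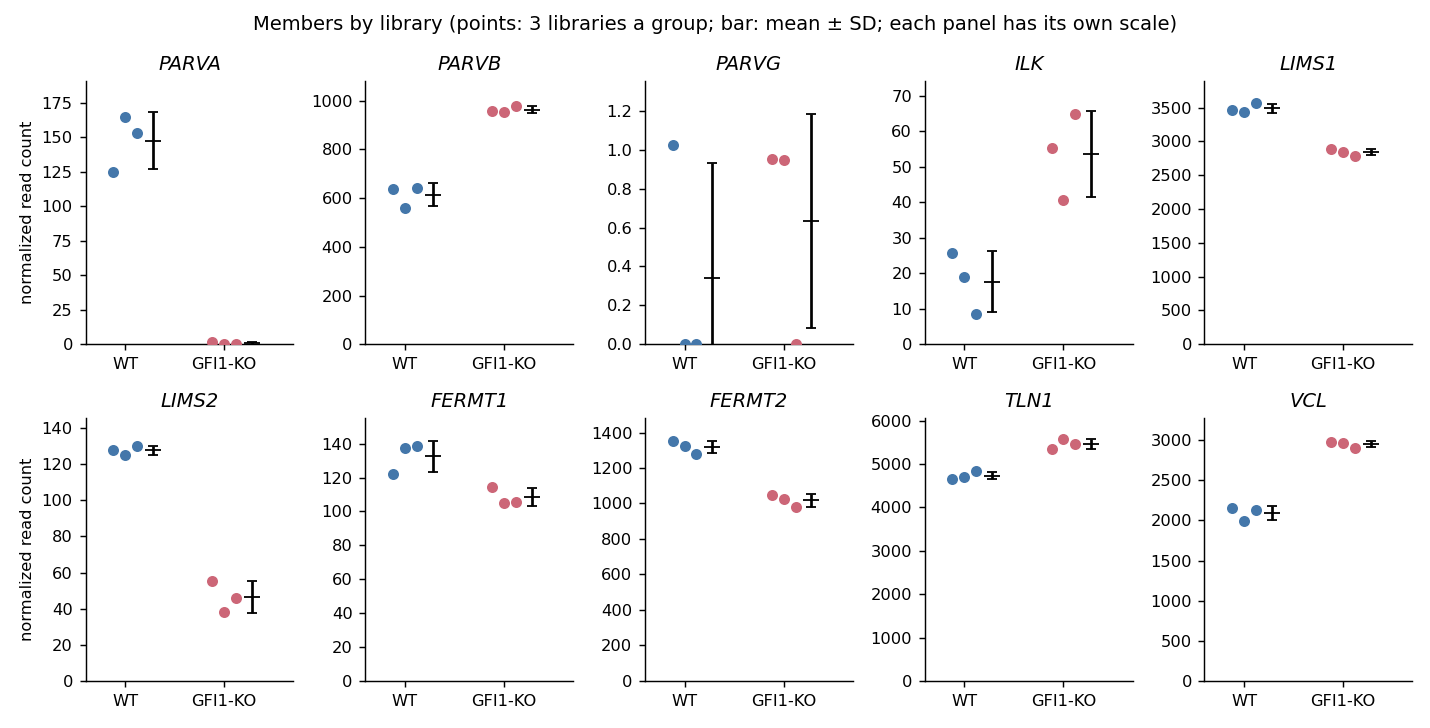
Normalized read count (y axis, linear and from 0, on a scale of its own in each panel) of the 10 members in the 3 libraries labelled WT (blue points) and the 3 labelled GFI1-KO (red points), with the mean ± SD as a black bar. PARVA lies at 125 to 165 in WT and at 0 to 1.91 in GFI1-KO, and PARVG has at most 1 count in a library.

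Sequence before the start site is shown for members that moved in different directions, VCL and TLN1 (higher) and LIMS2 and FERMT2 (lower), although TLN1 and FERMT2 turn over with the GC and length correction, with the capitals marking AATC on either strand (AATC or GATT), the core of the sites to which GFI1 binds. These are the 250 bases before the start from RefSeq on GRCh38.p14, each read 5′ to 3′ on the strand of its gene. The VCL window is chr10:73997866-73998115 (plus strand), the TLN1 window chr9:35732196-35732445, the window of the outermost LIMS2 start chr2:127681787-127682036 and the FERMT2 window chr14:52951051-52951300 (all 3 minus strand). The starts lie 2923, 200, 0 and 1385 bases inside the gene bounds that the authors deposited, and the windows of TLN1, LIMS2 and FERMT2 hold no exon base of GENCODE release 44 and that of VCL 2.
VCL: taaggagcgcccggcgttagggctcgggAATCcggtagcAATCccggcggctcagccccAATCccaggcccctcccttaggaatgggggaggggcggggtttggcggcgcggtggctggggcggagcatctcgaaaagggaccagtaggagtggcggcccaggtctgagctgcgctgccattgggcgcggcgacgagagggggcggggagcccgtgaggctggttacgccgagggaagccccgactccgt
TLN1: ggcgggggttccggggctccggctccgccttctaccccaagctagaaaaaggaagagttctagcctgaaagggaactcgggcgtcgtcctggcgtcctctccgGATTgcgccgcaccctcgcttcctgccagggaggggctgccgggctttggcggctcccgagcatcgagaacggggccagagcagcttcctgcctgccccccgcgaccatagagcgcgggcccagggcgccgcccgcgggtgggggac
LIMS2: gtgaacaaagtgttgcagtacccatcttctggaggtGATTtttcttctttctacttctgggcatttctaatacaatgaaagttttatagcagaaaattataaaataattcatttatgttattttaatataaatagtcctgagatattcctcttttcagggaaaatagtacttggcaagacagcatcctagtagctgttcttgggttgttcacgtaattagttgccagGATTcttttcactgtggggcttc
FERMT2: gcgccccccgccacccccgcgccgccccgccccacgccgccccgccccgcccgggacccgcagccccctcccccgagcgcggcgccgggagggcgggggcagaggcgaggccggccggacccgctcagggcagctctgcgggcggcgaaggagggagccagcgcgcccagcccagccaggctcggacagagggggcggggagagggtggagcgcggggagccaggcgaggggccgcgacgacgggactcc
The VCL window holds the motif 3 times, the outermost LIMS2 window 2 times, the TLN1 window 1 time and the FERMT2 window 0 times. The GC content of these windows is 70.4% for VCL, 70.8% for TLN1, 34.8% for LIMS2 and 84.4% for FERMT2. LIMS2 has 4 windows, and those of its other starts hold the motif 1, 0 and 1 times, at a GC content of 65.6%, 66.4% and 56.8%. Of 35116 windows of all genes, 64.8% hold AATC on either strand, with a median of 1. The table has windows for 8 of the 10 members, without PARVA and FERMT1, and 9 of their 15 windows (60.0%) hold it. The longer TAAATCAC, which contains AATC, is in none of the 15 and in 0.555% of all windows. A match of so short a motif is a description of the letters and not a bound site.

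Among the parvins, PARVA (ENSG00000197702, chromosome 11 from 12377185 to 12535356 on the plus strand of GRCh38) encodes alpha-parvin, an actin-binding protein found in most adherent cells. Its counts were 122, 149 and 146 in WT, and 2, 0 and 0 in GFI1-KO. All WT libraries were far above all GFI1-KO libraries, in which the gene lay under the floor. Per effective library size the summed 417 counts of WT were 233 times the 2 counts of GFI1-KO (95% counting interval 64.1 to 1931). Both remaining counts came from GFI1-KO replicate 1. The fitted log2 fold change was -7.61 (SE 0.40), or -10.19 without that library and -7.10 without replicate 2 or replicate 3, a value that depends on the small number the fit adds to counts near 0. With the GC and length correction it was -7.41. No exon base of PARVA is shared with another gene in GENCODE release 44, and 0.247% of the 50-base words of its transcripts recur in other genes.

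PARVB (ENSG00000188677, chromosome 22 from 43999211 to 44172949, plus strand) encodes beta-parvin, which competes with alpha-parvin for ILK. Its normalized counts were 638, 559 and 643 in WT and 958, 954 and 980 in GFI1-KO. The lowest GFI1-KO library was above the highest WT library, and the log2 fold change was 0.65 (SE 0.06), or 0.49 with the GC and length correction. PARVB therefore moved the other way from PARVA. The difference between their log2 fold changes was -8.26 (SE 0.40), and the ratio of PARVA to PARVB counts went from 0.240 to 0.000655, a conditional odds ratio of 369 (95% counting interval 100 to 3160).

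PARVG (ENSG00000138964, chromosome 22 from 44172956 to 44219533, plus strand), which lies directly after PARVB, encodes gamma-parvin, the form of blood cells. It had 1, 0 and 0 counts in WT and 1, 1 and 0 in GFI1-KO, under the floor in all 6 libraries, so no fold is given. A level of PARVG was not detectable at this depth in either group.

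Parvin transcripts as a whole were not fewer in the edited cells. The summed level of the 3 genes was 5.73 ± 0.329 FPKM in WT and 7.82 ± 0.111 FPKM in GFI1-KO (SD, n = 3 each). PARVA made up 12.2% ± 2.21 of it in WT and 0.0381% ± 0.0660 in GFI1-KO (SD, n = 3 each). The rise of PARVB, from 5.03 ± 0.386 to 7.81 ± 0.117 FPKM (SD, n = 3 each), was larger than the 0.698 ± 0.0975 FPKM (SD, n = 3) that PARVA had in WT.

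**Figure D2:**
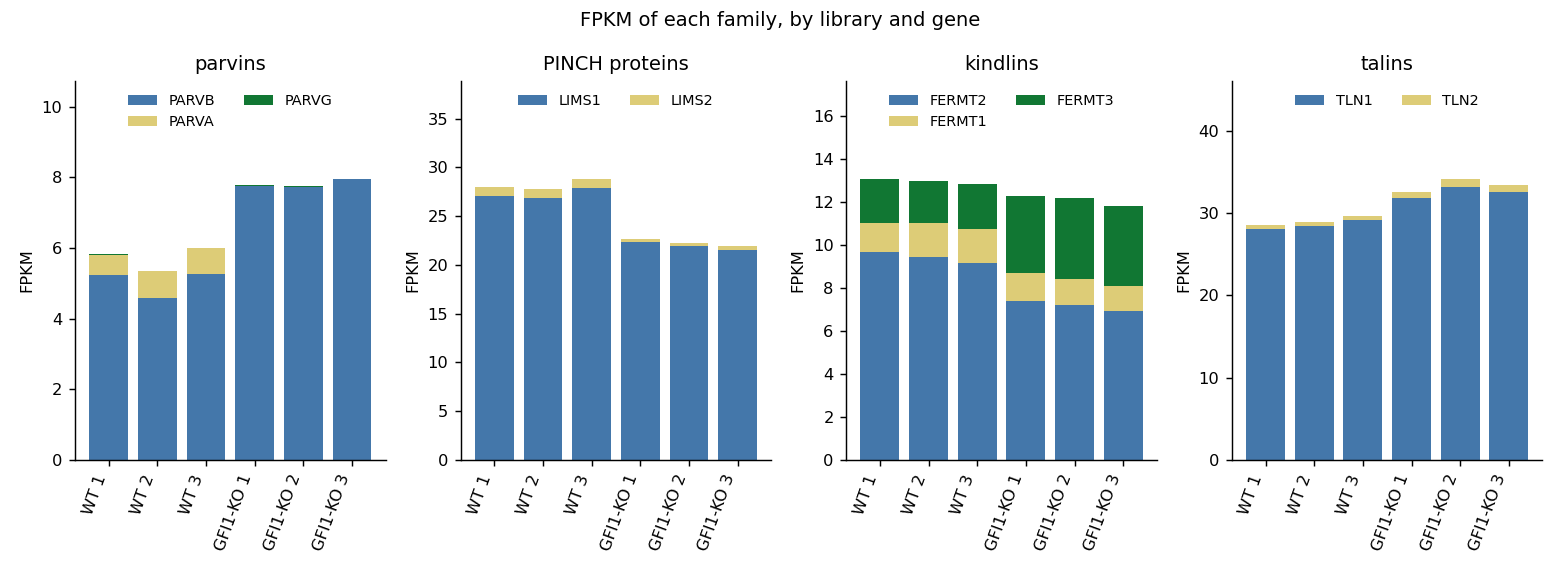
FPKM (y axis, linear and from 0) of the parvin, PINCH, kindlin and talin genes, stacked by gene, in each of the 6 libraries (x axis). The parvin bars show a visible PARVA segment in the WT libraries and none in those of GFI1-KO, and the FERMT3 segment of the kindlins takes 15.7% of the bar in WT and 30.7% in GFI1-KO on average, without the GC and length correction, with which FERMT2 and FERMT3 changed by similar amounts (log2 fold changes 0.17 and 0.32).

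ILK (ENSG00000166333, chromosome 11 from 6603708 to 6610874, plus strand) holds the complex together and ties it to the beta integrin tail. It had only 25, 17 and 8 counts in WT and 58, 43 and 69 in GFI1-KO. The groups did not overlap, but the WT libraries varied with a coefficient of variation of 49.2%, against 24.5% from counting alone. The normalized count went from 17.6 ± 8.66 to 53.7 ± 12.2 (SD, n = 3 each), a log2 fold change of 1.60 (SE 0.30), which stayed between 1.25 and 1.98 when single libraries were left out and was 1.29 with the GC and length correction. Of the exon bases of ILK, 78.5% also lie in exons of genes on the opposite strand, 68.1% in those of TAF10, a subunit of the general transcription factor TFIID. The strand setting of the counting is not given in the sources used here, and reads of ILK and TAF10 cannot be told apart without strand. TAF10 itself had 86, 97 and 81 counts in WT and 439, 394 and 429 in GFI1-KO, and its log2 fold change was 2.09 (SE 0.11). The level and the direction of ILK are thus uncertain, and the part of TAF10 in them was not tested.

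LIMS1 (ENSG00000169756, chromosome 2 from 108534355 to 108687246, plus strand) encodes PINCH1, the PINCH protein of most cells. Its normalized counts were 3467, 3436 and 3564 in WT and 2889, 2846 and 2789 in GFI1-KO. Every GFI1-KO library was below every WT library, and the log2 fold change was -0.30 (SE 0.03). With the GC and length correction it was 0.04 and no longer called. The counts of LIMS1 are uncertain in another way, since 21.3% of the 50-base words of its transcripts recur in other genes, chiefly its copies LIMS3 and LIMS4. These had at most 15 counts in a library, and their counts (15, 0, 1, 0, 1 and 0 for LIMS3) showed no pattern with the groups.

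LIMS2 (ENSG00000072163, chromosome 2 from 127638381 to 127681786, minus strand) encodes PINCH2, which can take the place of PINCH1 in the complex. It had 125, 113 and 124 counts in WT and 58, 40 and 49 in GFI1-KO. The WT libraries lay close together, and the highest GFI1-KO library was well below them. The normalized count went from 128 ± 2.54 to 46.4 ± 8.69 (SD, n = 3 each), a log2 fold change of -1.46 (SE 0.17) that stayed between -1.60 and -1.33 over the other settings and was -2.07 with the GC and length correction. Genes as rich in GC as LIMS2 (63.7% of exon bases) moved the other way: the 580 tested genes within 1 percentage point had a median log2 fold change of 0.70. LIMS1 held 96.75% ± 0.0208 of the summed PINCH level in WT and 98.5% ± 0.261 in GFI1-KO (SD, n = 3 each).

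Of the kindlins, FERMT2 (ENSG00000073712, chromosome 14 from 52857268 to 52952435, minus strand) encodes kindlin-2, the most widely expressed form, which recruits the complex to the integrin tail. Its normalized counts were 1353, 1323 and 1282 in WT and 1049, 1023 and 980 in GFI1-KO. The groups were apart, with a log2 fold change of -0.38 (SE 0.05). With the GC and length correction the sign turned, to 0.17. FERMT2 has the lowest GC content of the 10 members (38.6%), and the median of tested genes within 1 point of it was -0.49.

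FERMT1 (ENSG00000101311, chromosome 20 from 6074845 to 6123544, minus strand) encodes kindlin-1, the epithelial form. Its normalized counts were 122, 137 and 139 in WT and 114, 105 and 105 in GFI1-KO, so that the closest libraries of the groups were only 122 and 114. The log2 fold change was -0.29 (SE 0.13), and the call was lost in 10 of 15 other settings, among them DESeq2, limma-voom and the replicate block, and with the GC and length correction (-0.01). FERMT3, the kindlin of blood cells and no member, had 100, 89 and 101 counts in WT and 194, 204 and 202 in GFI1-KO, and its log2 fold change was 0.89 (SE 0.12, adjusted p = 2.2e-07, edgeR), or 0.32 with the GC and length correction. In FPKM, which carries no GC correction, FERMT2 went from 72.7% ± 1.28 to 59.3% ± 0.832 of the summed kindlin level and FERMT3 from 15.7% ± 0.665 to 30.7% ± 1.11 (SD, n = 3 each). This shift in shares depends on the scale, since with the GC and length correction the log2 fold changes of FERMT2 (0.17) and FERMT3 (0.32) lay close together.

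TLN1 (ENSG00000137076, chromosome 9 from 35696948 to 35732395, minus strand) encodes talin-1, which binds the beta tail, activates the receptor and pulls on actin. Its normalized counts were 4654, 4709 and 4830 in WT and 5345, 5565 and 5463 in GFI1-KO. The groups did not overlap, and the step was small, a log2 fold change of 0.21 (SE 0.03). It became -0.14 with the GC and length correction, in a gene whose exons hold 56.7% GC and whose neighbours in GC content had a median of 0.44. TLN2, the second talin and no member, had 141, 140 and 126 counts in WT and 214, 271 and 234 in GFI1-KO, and its log2 fold change was 0.66 (SE 0.11, adjusted p = 1.1e-05, edgeR), or 0.58 with the correction. TLN1 kept 98.15% ± 0.168 of the summed talin level in WT and 97.5% ± 0.244 in GFI1-KO (SD, n = 3 each).

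VCL (ENSG00000035403, chromosome 10 from 73995193 to 74121363, plus strand) encodes vinculin, which binds stretched talin and actin and strengthens the adhesion. Its normalized counts were 2157, 1991 and 2135 in WT and 2977, 2966 and 2905 in GFI1-KO. All GFI1-KO libraries were above all WT libraries, with a log2 fold change of 0.49 (SE 0.04) that stayed between 0.45 and 0.51 over the other settings and was 0.69 with the GC and length correction. Exons of AP3M1, on the opposite strand, cover 11.1% of its exon bases, and AP3M1 moved the other way (log2 fold change -0.59, SE 0.04).

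**Figure D3:**
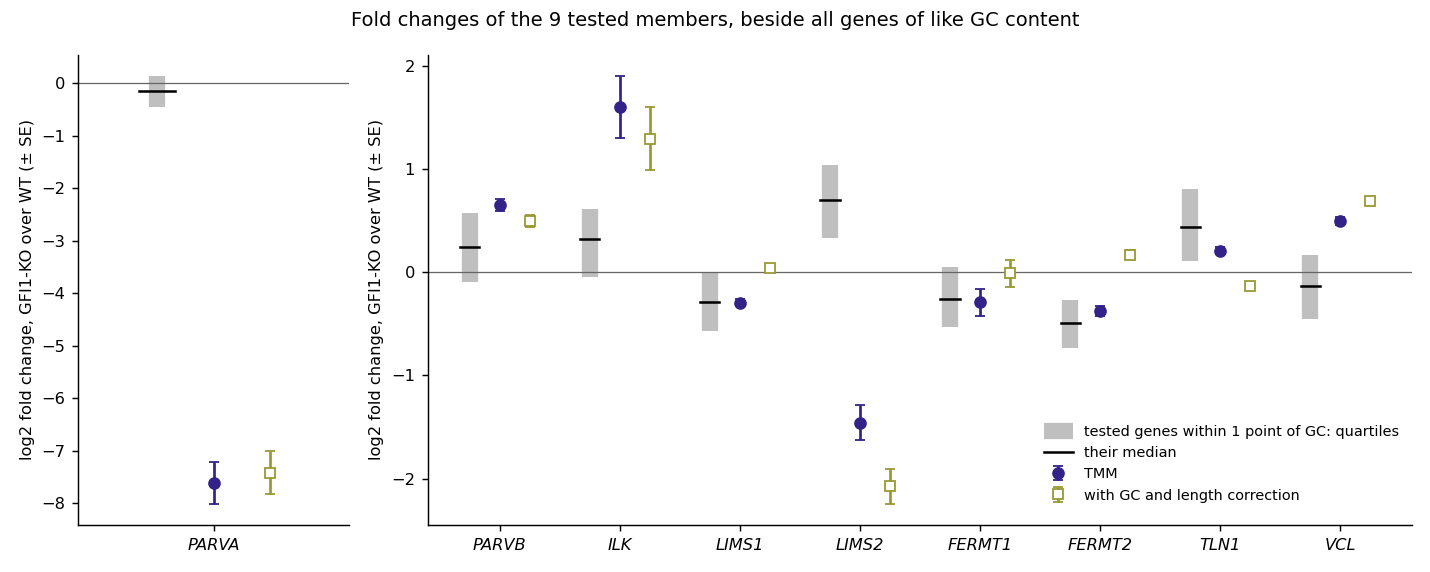
Log2 fold change of GFI1-KO over WT (y axis, ± SE) of the 9 tested members with TMM scaling (filled circles) and with the GC and length correction (open squares), with PARVA on a wider axis. Gray bars are the quartiles, and black lines the medians, of all tested genes within 1 percentage point of the member's GC content. LIMS1, FERMT1, FERMT2 and TLN1 lie within these quartiles, and PARVA, PARVB, ILK, LIMS2 and VCL lie outside them.

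The reason for setting members beside genes of like GC content is a trend across the whole table. Over 17415 genes, the log2 fold change rose with the GC content of the exons with a Spearman rho of 0.580, and with one of 0.0284 after the correction, genes not being independent replicates. Whether the trend comes from the libraries or from the cells cannot be told apart here. The median of genes near the GC content of PARVA (45.0%) was -0.15, near that of PARVB (53.1%) 0.25, near that of ILK (54.2%) 0.32 and near that of VCL (45.4%) -0.14. With the correction 61.2% of 17415 genes were called, 32.9% higher and 28.3% lower, with an overall median of 0.02. Of the members 4 were then called higher and 3 lower, from which again nothing is read, their median log2 fold change was 0.04, and FERMT2 and TLN1 were called on the side opposite to that without it.

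For the order of levels, FPKM was used, since it takes the length of each gene into account. In WT the order was TLN1 (28.5 ± 0.556 FPKM), LIMS1 (27.2 ± 0.530), VCL (12.7 ± 0.544), FERMT2 (9.41 ± 0.250), PARVB (5.03 ± 0.386), FERMT1 (1.50 ± 0.106), LIMS2 (0.913 ± 0.0182), PARVA (0.698 ± 0.0975), ILK (0.307 ± 0.151) and PARVG (SD, n = 3 each). No neighbours in that order overlapped between their libraries, although TLN1 and LIMS1 were close, with 28.0 FPKM in the lowest library of TLN1 and 27.8 FPKM in the highest of LIMS1. TLN1 stood above 90.8% of all genes tested, PARVB above 52.4%, PARVA above 16.9% and ILK above 7.29%. ILK was thus counted at a far lower level than its binding partners PARVB and LIMS1. In GFI1-KO the order was TLN1 (32.5 ± 0.675 FPKM), LIMS1 (21.9 ± 0.368), VCL (17.7 ± 0.219), PARVB (7.81 ± 0.117), FERMT2 (7.17 ± 0.241), FERMT1 (1.21 ± 0.0576), ILK (0.924 ± 0.210), LIMS2 (0.328 ± 0.0612), PARVG and PARVA (SD, n = 3 each). In this order PARVB passed FERMT2 and ILK passed LIMS2, and only PARVG and PARVA, both under the floor, overlapped. FPKM carries no GC correction, and with the GC and length correction the log2 fold changes were 0.49 for PARVB and 0.17 for FERMT2. The place of ILK is as uncertain as its level, given the exon bases it shares with TAF10. The summed level of the 10 genes was 84.9 to 87.7 FPKM in WT and 89.1 to 90.0 FPKM in GFI1-KO.

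The genes around PARVA were examined to see how far the low counts extended along chromosome 11. They were taken by position, outside the naming rule. Of the 7 other tested genes that lie within 1 Mb, none came near the loss of PARVA. MICAL2, an actin-oxidizing enzyme that ends 18041 bases before PARVA, had a log2 fold change of 0.46 (SE 0.05, adjusted p = 2.4e-08, edgeR). TEAD1, a transcription factor of the Hippo pathway that begins 139235 bases after it, had one of 0.29 (SE 0.04, adjusted p = 8.3e-08, edgeR). Across the 7 genes, DKK3 was also higher (0.38, SE 0.05), USP47 (-0.54, SE 0.04) and BTBD10 (-0.38, SE 0.06) were lower, and GALNT18 (0.32, SE 0.19) and ARNTL (0.12, SE 0.08) were not called. Since 72.4% of all genes tested were called, nothing is read from these calls. With the GC and length correction the values were 0.41 for MICAL2, 0.61 for TEAD1, 0.49 for DKK3 and 0.08 for GALNT18. Those of USP47 and BTBD10 were -0.11 and -0.14, and ARNTL was then called higher (0.32).

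**Figure D4:**
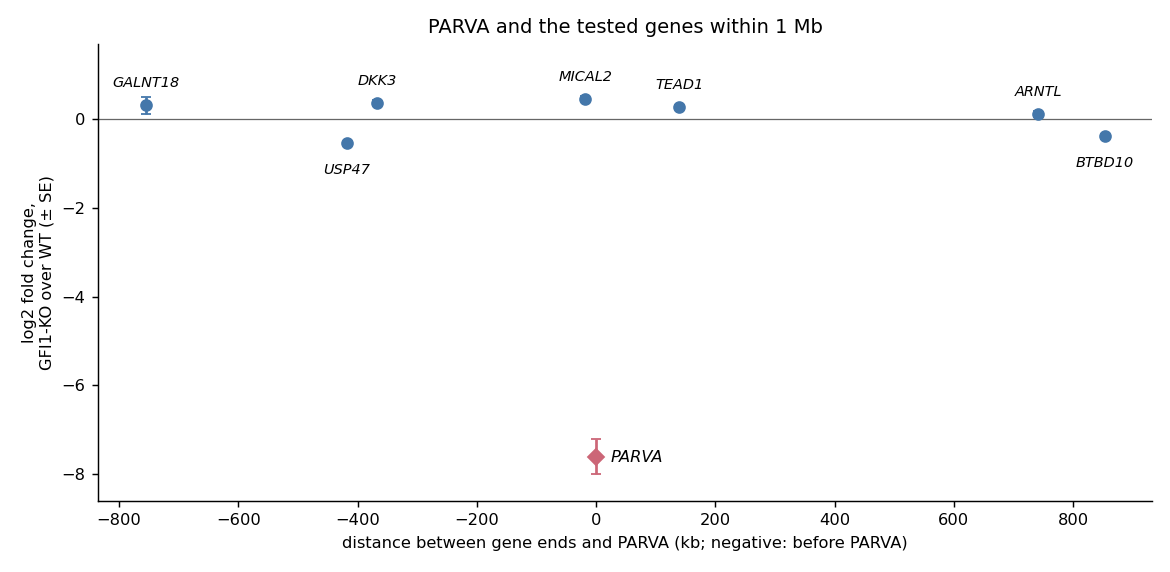
Log2 fold change of GFI1-KO over WT (y axis, ± SE) of PARVA (red diamond) and of the 7 other tested genes within 1 Mb (blue points), against the distance from PARVA to the nearer end of each gene in kb (x axis). The 7 neighbours lie between -0.54 and 0.46, and PARVA at -7.61.

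The 4 protein-coding genes with a pattern over the 6 libraries most like that of PARVA, among 11213 with a mean of at least 100 normalized counts, were UBE2QL1, CLVS2, ELAVL4 and DPP10. Likeness was the Euclidean distance between centred log2 normalized counts, which was 1.77, 1.82, 1.89 and 2.67 in that order, and with 2 groups it mostly follows the size of the fall. UBE2QL1 had 462, 467 and 433 counts in WT and 5, 5 and 1 in GFI1-KO. ELAVL4, a neuronal RNA-binding protein, had 427, 358 and 355 counts in WT and 8, 4 and 4 in GFI1-KO. All 4 were above 200 counts in each WT library and at 10 counts or fewer in each GFI1-KO library. The way they were chosen mostly fixes this, since a gene near 0 in GFI1-KO reaches the minimum mean only through its WT libraries. PARVA itself, with group means of 148 (WT) and 0.635 (GFI1-KO) normalized counts, lies under that minimum, so genes at its own level were left out.

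The other genes of the adhesion machinery were taken from 6 lists of 68 genes in all that hold no member, of which 64 passed the filter. Of these, 40 were higher and 19 lower in GFI1-KO by edgeR (adjusted p of 0.05 or less), and 5 were not called, beside 36.5% higher and 35.9% lower of all genes tested, with a median log2 fold change of 0.47 beside 0.0005 over all genes tested. With the GC and length correction 33 were higher and 9 lower, beside 32.9% and 28.3% of all genes, and the median was 0.19, beside 0.02. The lists were chosen with earlier results known, and no test of a list as a whole was made.

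Among the 8 binding partners of ILK, PINCH and parvin, 4 rose, 3 fell and 1 was not called, with a median log2 fold change of 0.13. ARHGAP31, a GTPase-activating protein for Cdc42 and Rac that binds alpha-parvin, rose from 313 ± 35.3 to 694 ± 16.0 normalized counts (SD, n = 3 each), a log2 fold change of 1.15 (SE 0.07, adjusted p = 2.2e-13, edgeR) with and without the correction. TESK1, a kinase that alpha-parvin holds in check, rose by 1.07 on the log2 scale (SE 0.07, adjusted p = 9.5e-13, edgeR), or 0.40 with the correction. ARHGEF7, the beta-PIX exchange factor, fell by 0.24 on the log2 scale (SE 0.04, adjusted p = 4.9e-06, edgeR), also with the correction. NCK1, a signalling adaptor, had -0.28 (SE 0.08, adjusted p = 0.0023, edgeR) and 0.25 with the correction, which turns its direction.

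Of the 13 other regulators of integrin activation, 12 were tested, 8 of which rose and 4 of which fell, with a median log2 fold change of 0.51. SHARPIN, which holds integrin alpha tails inactive, rose by 1.38 (SE 0.06, adjusted p = 7.1e-17, edgeR), or 0.64 with the correction. KANK2, which binds talin at the rim of adhesions, rose by 1.12 (SE 0.05, adjusted p = 8.2e-17, edgeR), or 0.68 with the correction. RAP1A, the small GTPase that brings talin to the membrane, fell by 0.57 on the log2 scale (SE 0.05, adjusted p = 1.5e-10, edgeR), and RAPH1, the adaptor lamellipodin, by 0.53 (SE 0.10, adjusted p = 2.7e-05, edgeR). With the correction neither of the last 2 was called (-0.05 and -0.20).

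Of the 9 talin and vinculin partners, 8 were tested, of which 4 rose and 3 were not called. SORBS3 (vinexin), an adaptor that binds vinculin, rose from 289 ± 24.0 to 1074 ± 30.3 normalized counts (SD, n = 3 each), a log2 fold change of 1.89 (SE 0.07, adjusted p = 7.6e-19, edgeR), or 1.26 with the correction. TNS2, a tensin, rose by 0.72 (SE 0.08, adjusted p = 1.3e-08, edgeR), or 0.18 and no longer called with the correction.

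Of the 13 genes of the FAK and paxillin axis, all passed the filter, 9 rose and 4 fell, with a median log2 fold change of 0.33. PXN, the scaffold paxillin, rose by 0.78 (SE 0.05, adjusted p = 1.3e-13, edgeR), and its relative TGFB1I1 (Hic-5) by 0.76 (SE 0.07, adjusted p = 7.6e-10, edgeR), or 0.33 and 0.27 with the correction. PTK2, which encodes focal adhesion kinase, had -0.28 (SE 0.03, adjusted p = 5.8e-08, edgeR) and ARHGEF12 -0.41 (SE 0.03, adjusted p = 1.1e-11, edgeR), and with the correction they stood at 0.0007 and 0.08.

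Of the 17 genes of the alpha-actinin, zyxin and VASP axis, 10 rose, 6 fell and 1 was not called, with a median log2 fold change of 0.37 that was 0.08 with the correction. LASP1, an actin-binding LIM protein, rose by 1.19 (SE 0.05, adjusted p = 9.2e-18, edgeR) and VASP, an actin elongation factor of adhesions, by 0.97 (SE 0.07, adjusted p = 8.0e-13, edgeR), or 0.81 and 0.44 with the correction. PALLD, the actin scaffold palladin, fell from 1874 ± 27.0 to 799 ± 20.9 normalized counts (SD, n = 3 each), a log2 fold change of -1.23 (SE 0.05, adjusted p = 2.2e-18, edgeR), or -1.04 with the correction. ENAH, a relative of VASP, had -0.39 (SE 0.03, adjusted p = 1.0e-10, edgeR) and 0.07 with the correction.

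Of the 8 integrin beta chains, whose tails talin, kindlin and ILK bind, 6 were tested, of which 5 rose and 1 fell. With the GC and length correction 4 were called higher and 0 lower, beside 32.9% and 28.3% of all genes. ITGB1, the most abundant of them, had 4488 ± 24.0 and 4158 ± 80.7 normalized counts (SD, n = 3 each), a log2 fold change of -0.11 (SE 0.03, adjusted p = 0.0038, edgeR) that turned to 0.27 with the correction. ITGB5, the partner of the alpha-V chain, rose from 225 ± 23.0 to 479 ± 29.9 (SD, n = 3 each), a log2 fold change of 1.09 (SE 0.09, adjusted p = 1.2e-11, edgeR), or 0.88 with the correction.

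**Figure D5:**
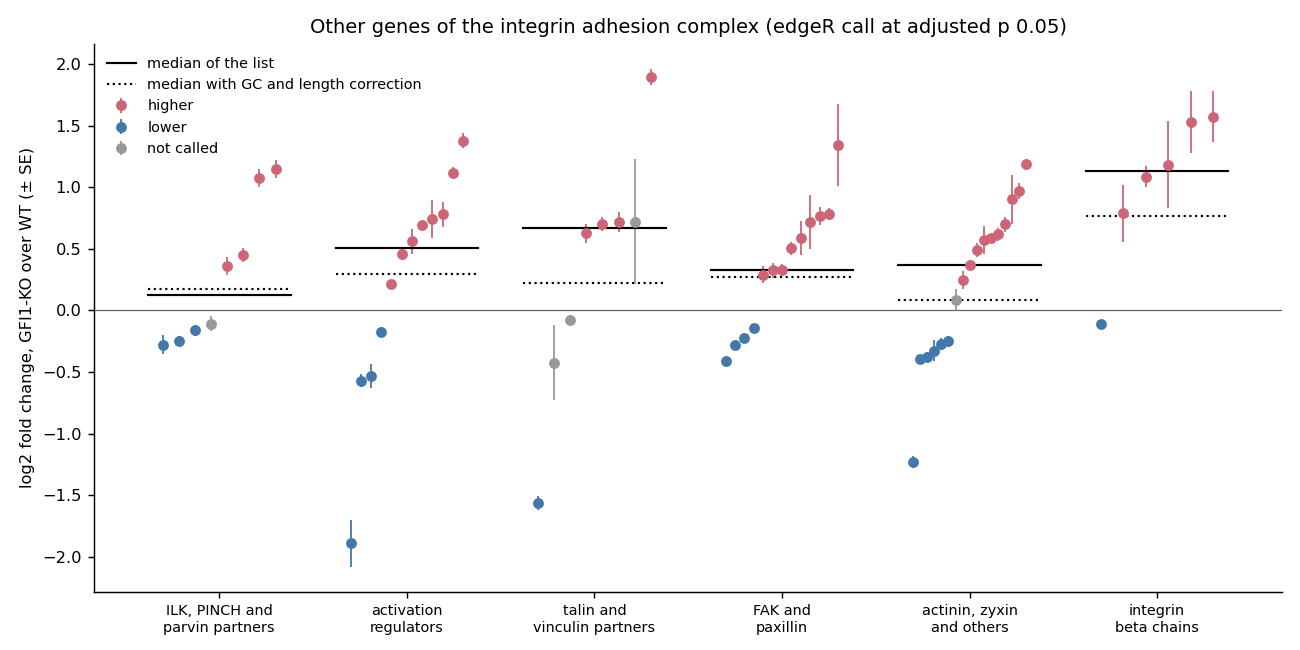
Log2 fold change of GFI1-KO over WT (y axis, ± SE) of the 64 tested genes in the 6 lists (x axis), as points ordered within each list and colored by edgeR's call at an adjusted p of 0.05 (red higher, blue lower, gray not called). Solid lines are the medians of the lists and dotted lines the medians with the GC and length correction, which lie lower in all lists but that of the ILK, PINCH and parvin partners.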

How the data were processed

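The series holds 6 RNA-Seq libraries of H1155 cells (3 labelled WT, 3 labelled GFI1-KO) from poly-T-selected RNA, for which the authors deposited raw read counts per gene. The labels name Bowtie2, HTSeq and hg38, and the study's methods name Hisat2 and featureCounts on GRCh38, so the aligner and counter are uncertain. The strand setting and the rule for reads with several matches are not given in the sources used here. Gene length, start and end were also deposited, with chromosome, strand and name. The libraries summed to 14882914 to 17692882 counts, and counting error is the precision this depth gives.

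The members and gene lists were chosen with earlier results of these data known. Counts were tested with edgeR 4.0.16 in R 4.3.3 (TMM, filterByExpr, quasi-likelihood F test, Benjamini-Hochberg adjustment, adjusted p of at most 0.05, no fold minimum) over all 17514 genes that passed, and each SE is the absolute log2 fold change over the square root of F. The labels do not say that replicates are separate cultures, so p-values measure the spread between these samples, which may be technical. The chi-square per degree of freedom between libraries of 1 group was 1.79 to 3.84, so none was counted as a duplicate. FPKM was computed from the count, the deposited length and the library total. GC content and exon overlaps came from GENCODE release 44, which holds 99.1% of the deposited identifiers, and promoter windows from RefSeq. The GC and length correction used natural splines of 5 degrees of freedom per library as offsets.

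Besides the members, the text names GFI1, paralogs, overlapping genes, up to 2 rising and 2 falling genes per list (called, mean of at least 100 normalized counts, no overlap), and the 5 genes most like PARVA, of which some are not reported here. Alternatives were DESeq2 1.42.0, limma-voom (limma 3.58.1), other scalings and filters, the replicate number as a block, each library left out and an adjusted p of at most 0.01. The steps were tested on simulated data. Sequences and figures were handled in Python 3.11.15 with pandas 2.3.3 and numpy 2.4.6, and plotted with matplotlib 3.10.9.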

Additional observations from a re-analysis of the deposited data

How the results depend on the processing

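Over 15 settings for each gene other than the GC and length correction (14 for PARVA and ILK, which a minimum of 10 counts in every sample removes), none of the 9 tested members or 25 other named genes run through them changed direction, and the members' calls held in all but 10 of 133 comparisons, all 10 of FERMT1. Of the others, GFI1 lost its call in 6. The GC and length correction changed the most. With it, alone and together with the replicate block, 3 members were called lower in place of 5, and 9 genes of the adhesion lists in place of 19. Directions turned, with a call on the opposite side, for FERMT2 (0.1692, and 0.1691 with the block), TLN1 (-0.1375 and -0.1373), NCK1 (0.2522 and 0.2533) and ITGB1 (0.2696 with either fit). ARHGEF12 (0.0754, and 0.0755 with the block) was called higher with the correction alone and not called with the block. The falls of LIMS1 (0.0401 with either fit), PTK2 (0.0007 and 0.0005) and ENAH (0.0678 with either) vanished, their values being slightly positive and not called. The cause was not tested. The replicate numbers did not pair the libraries: deviations of same-numbered libraries correlated at -0.00362, 0.0164 and 0.0238 over 11867 genes, and those of others at -0.0517 to 0.0427. With the replicate block alone 8 members were called, FERMT1 being lost, 59 genes of the adhesion lists and 12573 genes in all. The difference between the log2 fold changes of PARVA and PARVB was -8.26, and -10.85 to -7.74 when single libraries were left out, with -10.85 without GFI1-KO replicate 1, which leaves PARVA with no count in that group. The median log2 fold change of all genes was 0.0005, and -0.0416 to -0.0044 with the other scalings. Depth limits PARVG, PARVA in GFI1-KO and ILK.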
